A study of Mus musculus with 4 samples.

Results

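The 10 genes *L1cam*, *Nrcam*, *Chl1*, *Nfasc* and *Cntn1* to *Cntn6* encode the L1 family and the contactins, adhesion molecules of axons that belong to the immunoglobulin superfamily. They were chosen by gene family, and all 10 were found by symbol among the 24062 genes of the count table. Reads per gene were compared between 2 libraries of wildtype retinas and 2 libraries of *Nrf1* f/f;Six3-Cre retinas, which the labels call Nrf1-CKO, all from mouse embryos at E13.5 of a mixed C57BL/6 129 strain. Each library was made from RNA of pooled retinas of several littermates, and only the mutants carry both the floxed *Nrf1* alleles and Six3-Cre, a transgene that starts to be active in the central retina. *Nrf1*, a transcription factor gene with many targets among nuclear genes for mitochondrial proteins, loses its exon 4 in cells with active Cre.

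L1 family proteins cross the membrane and bind ankyrins and the spectrin cytoskeleton on the inside, whereas contactins are attached to the outer leaflet by a lipid anchor and rely on partners in the same membrane to signal. Both groups carry immunoglobulin and fibronectin type III domains, bind to themselves and to each other, and are known for guiding and bundling growing axons. In the embryonic retina, the retinal ganglion cells are the first neurons to be born, and they are the cells that send axons out of the eye. *L1cam* and *Cntn2* (also called TAG-1) are classical surface molecules of such axons. In bulk RNA, fewer cells of a type and less RNA per cell cannot be told apart.

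Transcripts of 7 of the 10 genes fell in *Nrf1* f/f;Six3-Cre retinas, *Cntn3* rose, and *Cntn4* and *Cntn6* were not called. All 4 L1 family genes fell, whereas the contactins divided into 3 that fell, 1 that rose and 2 that were not called. A gene was called when its fold change was at least 1.4 and its adjusted p at most 0.2, in edgeR's quasi-likelihood test over 15762 genes with Benjamini-Hochberg adjustment. Of all tested genes, 8.04% were called lower and 12.8% higher, 20.9% in either direction. The median log2 fold change was -1.24 over the 10 genes (-0.54 on the authors' deposited log2 values) and 0.00073 over all tested genes. At an adjusted p of at most 0.05 and the same fold, the counts among the 10 genes stayed at 7 and 1, beside 6.59% of all tested genes called lower and 9.17% called higher. Both mutant libraries lay below both wildtype libraries for 8 of the 10 genes, a pattern seen in 31.6% of tested genes, and above them for *Cntn3* and *Cntn4*, as in 30.9%. For 6 of the 10, the mutant mean was at most 50% of the wildtype mean, as in 4.15% of tested genes.

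Depth was similar in the 4 libraries, with 74577660 to 85933945 reads on genes and normalization factors of 0.992 to 1.02. Reads on *Nrf1* numbered 9052 and 7789 in wildtype and 8594 and 8284 in mutant libraries. A count over the whole gene does not show whether exon 4 was deleted, so this is no check of the genotype labels. Of 12 retinal ganglion cell markers, 11 were called lower (median log2 fold change -1.70). The study chose most of these genes on the same libraries, as it did *L1cam* and *Cntn2*, so their direction is not independent evidence. The same holds for *Scn3b*, *Dcx*, *Islr2* and *Dscam*, given further below, which the study also lists as lower. Among 12 progenitor markers, 3 were called lower and none higher, with a median of -0.11.

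The 3 promoters below belong to the contactin gene with the highest level, the gene that gave the L1 family its name and the only gene of the 10 that rose, and they are shown to let the sequences of these genes be read beside their values. Each runs from 250 bases before to 50 bases after a transcription start of RefSeq in GRCm38.p6, read 5′ to 3′ on the strand of the gene, with every CG dinucleotide in capitals. They lie at chr1:132542891-132543190 (minus strand) for *Cntn2*, chrX:73880741-73881040 (minus strand) for *L1cam* and chr6:102464618-102464917 (minus strand) for *Cntn3*. Counted from the 5′ end of the gene in GENCODE, the upstream end of the window lies 0.066 kb inside the gene for *Cntn2*, 15.1 kb for *L1cam* and 108 kb for *Cntn3*.
Cntn2: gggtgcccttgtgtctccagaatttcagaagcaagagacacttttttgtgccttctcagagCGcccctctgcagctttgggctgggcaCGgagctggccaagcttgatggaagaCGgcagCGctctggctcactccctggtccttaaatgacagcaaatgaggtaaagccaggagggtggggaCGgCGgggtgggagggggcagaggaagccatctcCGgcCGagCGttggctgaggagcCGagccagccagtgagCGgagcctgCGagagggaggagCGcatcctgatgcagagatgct
L1cam: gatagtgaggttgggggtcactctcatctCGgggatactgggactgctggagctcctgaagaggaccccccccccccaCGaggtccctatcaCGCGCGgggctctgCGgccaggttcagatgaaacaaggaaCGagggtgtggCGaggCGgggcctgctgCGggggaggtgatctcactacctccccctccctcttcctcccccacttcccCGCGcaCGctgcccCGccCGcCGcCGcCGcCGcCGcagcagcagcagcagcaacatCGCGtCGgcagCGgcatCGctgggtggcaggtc
Cntn3: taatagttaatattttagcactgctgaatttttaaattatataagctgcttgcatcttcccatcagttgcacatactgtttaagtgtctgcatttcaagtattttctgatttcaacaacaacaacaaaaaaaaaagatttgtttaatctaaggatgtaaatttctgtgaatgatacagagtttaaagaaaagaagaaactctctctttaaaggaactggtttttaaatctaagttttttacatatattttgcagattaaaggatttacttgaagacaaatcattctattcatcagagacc
The *L1cam* window holds 25 CG dinucleotides and 69.3% G or C, and the *Cntn2* window 13 and 61.3%. The *Cntn3* window holds 0, as do 5.43% of all 32851 promoter windows, and its 27.7% G or C lies at percentile 0.381 of them. The window of *Nrcam* has 37 CG dinucleotides and 74.0% G or C, percentile 95.2, while the median window has 7 and 52.7%. Genes with several windows, such as *Cntn1* and *Nfasc*, which both fell, varied among them. The *Cntn1* window at the 5′ end of the gene held 9 CG dinucleotides and 55.3% G or C. Its windows 76.7 and 110 kb inside the gene held 5 and 34.7% (percentile 3.40), and 4 and 45.0%. The *Nfasc* windows 34.2 and 98.7 kb inside the gene held 7 and 3 CG dinucleotides. The 10 genes have 16 such windows, and 0 of the 16 contain the palindromic core bound by the NRF1 protein (GCGC and TGCGC with any base between them) or the shorter TGCGCA on either strand. These letters occur in 4.60% and 7.76% of all promoter windows, and the pair of motifs can overlap. The absence of the letters from these windows says nothing about binding elsewhere in the genes.

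At the level of reads per length, *Cntn2* led the group in both genotypes. CPM, that is counts scaled to a common library size, were divided by the length of the merged exons in the GENCODE annotation, which may differ from the annotation used for counting. In wildtype retinas the *Cntn2* level was 49.1 ± 2.67 CPM per kb (SD, n = 2), followed by *Nrcam* at 13.8 ± 0.768 and *L1cam* at 13.2 ± 1.35, whose libraries overlapped. *Nfasc* at 10.5 ± 1.84 CPM per kb, *Cntn6* at 7.35 ± 0.00622 and *Cntn1* at 5.95 ± 0.0399 came next. *Cntn3* at 1.73 ± 0.151, *Cntn4* at 1.03 ± 0.0465, *Cntn5* at 0.304 ± 0.0127 and *Chl1* at 0.165 ± 0.0627 CPM per kb were the low members, and apart from *Nrcam* and *L1cam* no neighbours in this order overlapped between their libraries. The wildtype group therefore spans a wide range of abundance, with a single dominant contactin.

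In the mutant, *Cntn2* was still highest at 15.5 ± 3.01 CPM per kb and *Nrcam* second at 8.94 ± 0.969. *Cntn6* moved from place 5 to place 3 of the order with 5.50 ± 0.0444 CPM per kb, ahead of *L1cam* at 4.47 ± 1.05 and *Nfasc* at 4.32 ± 0.756. *Cntn3* at 3.01 ± 0.369 CPM per kb stood above *Cntn1* at 2.58 ± 0.466, the reverse of their wildtype order. The libraries of *L1cam* and *Nfasc* overlapped, as did those of *Cntn3* and *Cntn1*, so these places are not separated by more than the replicate spread. *Cntn4* at 1.10 ± 0.0290, *Cntn5* at 0.0865 ± 0.00213 and *Chl1* at 0.0471 ± 0.0168 kept the last 3 places.

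**Figure D1:**
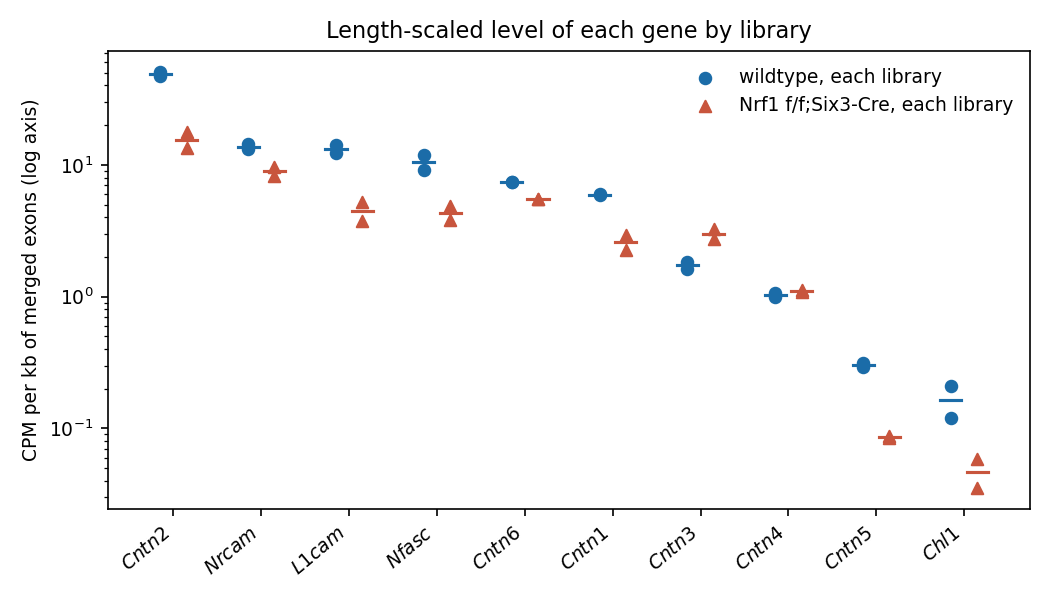
Level of each gene in CPM per kb of merged exons on a log axis, with circles for the 2 wildtype libraries, triangles for the 2 Nrf1 f/f;Six3-Cre libraries and short bars for the mean of each pair. Cntn2 is highest in both genotypes (49.1 and 15.5 CPM per kb), and only Cntn3 and Cntn4 have their mutant points above the wildtype points.

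Among the L1 family, *L1cam* lies on chromosome X of GRCm38 from 73853778 to 73896105 on the minus strand and encodes the neural adhesion molecule for which the family is named. Reads on it numbered 7876 and 7710 in wildtype and 3180 and 2263 in mutant libraries. Both mutant libraries were far below both wildtype libraries. Errors of fold changes are standard errors (SE). The level fell from 96.9 ± 9.91 to 32.8 ± 7.73 CPM (SD, n = 2), which is 33.9% of wildtype and a log2 fold change of -1.56 (SE 0.15, adjusted p = 0.000223 from edgeR). Its exons share 100 bases, 1.36% of their length, with those of *Arhgap4* on the same strand, and how reads there were assigned is not given in the sources used here.

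*Nfasc* encodes neurofascin, which gathers at the axon initial segment and at nodes of Ranvier in mature neurons. It spans 132564690 to 132741797 on the minus strand of chromosome 1. The wildtype libraries had 11404 and 12383 reads on it, and the mutant libraries 5708 and 4433. These groups did not overlap, at 130 and 167 CPM in wildtype and 68.7 and 53.6 CPM in mutant libraries. *Nfasc* fell to 41.2% of wildtype, with a log2 fold change of -1.28 (SE 0.14, adjusted p = 0.000406 from edgeR).

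The fall of *Nrcam*, which encodes the neuronal cell adhesion molecule that guides ganglion cell axons among others, was more modest. On the plus strand of chromosome 12 from 44328885 to 44601964, it had 15473 and 14181 reads in wildtype and 10683 and 9125 in mutant libraries. Its level was 184 ± 10.3 CPM in wildtype and 119 ± 12.9 CPM in mutant retinas, 64.9% of wildtype, a log2 fold change of -0.62 (SE 0.09, adjusted p = 0.00177 from edgeR). The 95% interval from -0.84 to -0.41 did not overlap that of *L1cam*, from -1.90 to -1.23. Reads on *L1cam* per read on *Nrcam* numbered 0.509 and 0.544 in wildtype and 0.298 and 0.248 in mutant libraries. With 2 libraries a genotype, an exact test of this ratio cannot reach significance, and the difference between both genes was not tested. When the test asked for a change beyond 1.4-fold, *Nrcam* was no longer called (adjusted p = 0.219 from edgeR's glmTreat).

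*Chl1*, the close homologue of L1, was the scarcest member per length. It lies on the plus strand of chromosome 6 from 103510586 to 103750211, and it had 130 and 191 reads in wildtype and 36 and 60 in mutant libraries. The groups did not overlap, but the wildtype libraries stood at 1.48 and 2.58 CPM, a wide spread for this group. *Chl1* fell to 28.5% of wildtype (log2 fold change -1.80, SE 0.44, adjusted p = 0.0181 from edgeR). On the authors' log2 values the difference was -0.49, only just past the 1.4-fold limit, and was still called.

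Of the contactins, *Cntn2* carried the most reads of all 10 genes. It lies on the minus strand of chromosome 1 from 132509427 to 132543256. The wildtype libraries held 38478 and 35191 reads and the mutant libraries 13625 and 10291. No mutant library came near the wildtype level, and the mutants differed from each other by 164 against 124 CPM. *Cntn2* fell from 457 ± 24.8 to 144 ± 28.0 CPM (SD, n = 2), 31.6% of wildtype, a log2 fold change of -1.66 (SE 0.13, adjusted p = 0.000102 from edgeR).

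*Cntn1*, which encodes contactin (F3), a partner of neurofascin and of the contactin-associated proteins, lies on the plus strand of chromosome 15 from 92051165 to 92341967. The wildtype libraries had 4896 and 4186 reads and the mutants 2284 and 1760. In CPM the wildtype libraries were almost equal (55.9 and 56.4), and both mutants (27.5 and 21.3) were below 50% of them. The log2 fold change was -1.20 (SE 0.12, adjusted p = 0.000257 from edgeR).

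*Cntn5*, also called NB-2, lies on the minus strand of chromosome 9 from 9660891 to 10904775. Reads numbered 124 and 99 in wildtype and only 32 and 33 in mutant libraries. Although these are few reads, each pair of libraries was close, at 1.42 and 1.33 CPM against 0.385 and 0.399 CPM. The log2 fold change was -1.81 (SE 0.42, adjusted p = 0.0150 from edgeR). On the authors' log2 values the difference was -0.41, below the 1.4-fold limit, and the call was lost. The exons share 290 bases, 6.40% of their length, with *Gm32710* on the opposite strand, and as no strand setting of the counting is stated, reads there could come from either gene.

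The only rise was that of *Cntn3*, also known as BIG-1, on the minus strand of chromosome 6 from 102162655 to 102573101. It had 1085 and 812 reads in wildtype and 1539 and 1823 in mutant libraries. Both mutant libraries exceeded both wildtype libraries, and mutant replicate 2 was the highest, above the 18.5 CPM of mutant replicate 1. *Cntn3* rose from 11.7 ± 1.02 to 20.3 ± 2.48 CPM, 174% of wildtype (log2 fold change 0.80, SE 0.13, adjusted p = 0.00265 from edgeR).

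Neither of the remaining contactins was called. *Cntn6*, also called NB-3, lies on chromosome 6 from 104492790 to 104863406 on the plus strand and had 4186 and 3541 reads in wildtype and 2985 and 2939 in mutant libraries. Its mutant level was 74.8% of wildtype, 35.7 ± 0.289 against 47.8 ± 0.0404 CPM, and each pair of libraries was very close. The adjusted p was 0.00521 in edgeR's test, but the log2 fold change of -0.42 (95% interval -0.60 to -0.24) stayed inside the 1.4-fold limit. For *Cntn4*, or BIG-2, on the plus strand of chromosome 6 from 105677660 to 106699310, the counts were 788 and 626 in wildtype and 791 and 759 in mutant libraries. The mutant libraries were slightly above the wildtype libraries after scaling, with a log2 fold change of 0.10, a 95% interval from -0.21 to 0.41 and an adjusted p of 0.653 from edgeR. That interval excludes a change of 1.4-fold in either direction.

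**Figure D2:**
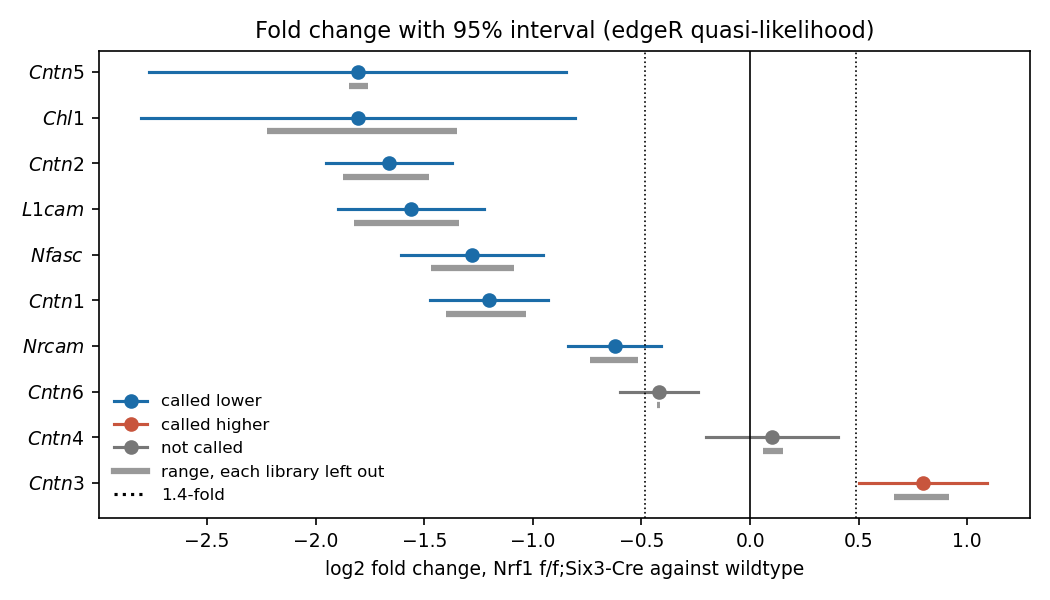
Log2 fold change of each gene in Nrf1 f/f;Six3-Cre against wildtype retinas (points) with its 95% interval (thin lines), ordered from the most negative, and the range of the value when each of the 4 libraries was left out in turn (thick grey lines). Dotted lines mark 1.4-fold. The values run from -1.81 for Cntn5 to 0.80 for Cntn3, and no range with a library left out crosses 0.

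Several of the genes are neighbours on a chromosome. *Cntn2* and *Nfasc* lie 21.4 kb apart on chromosome 1 with 0 annotated protein-coding genes between them, and both fell, with log2 fold changes of -1.66 and -1.28. On chromosome 6, *Cntn3*, *Chl1*, *Cntn6* and *Cntn4* follow each other over 4.54 Mb, again with 0 protein-coding genes in the 3 gaps of 0.937, 0.743 and 0.814 Mb. Their log2 fold changes in this order were 0.80, -1.80, -0.42 and 0.10. *Cntn3*, which rose, and *Chl1*, which fell, are thus direct neighbours among protein-coding genes.

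Because the genes fell to different degrees, the make-up of the group changed. Reads on the 10 genes together numbered 84440 and 78920 in wildtype and 40863 and 33486 in mutant libraries, or 964 and 1064 against 492 and 405 CPM. *Cntn2* supplied 45.6% and 44.6% of these reads in wildtype and 33.3% and 30.7% in mutant libraries. *Nrcam* went the other way, with 18.3% and 18.0% against 26.1% and 27.3%, although its own level fell. The share of *Cntn6* was 4.96% and 4.49% in wildtype and 7.30% and 8.78% in mutant libraries, and that of *Cntn3* 1.28% and 1.03% against 3.77% and 5.44%. The shares of *Nfasc*, between 13.2% and 15.7%, overlapped between the genotypes. The exact (Clopper-Pearson) 95% binomial intervals of these shares reached at most 0.497 percentage points to either side and cover counting error only.

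**Figure D3:**
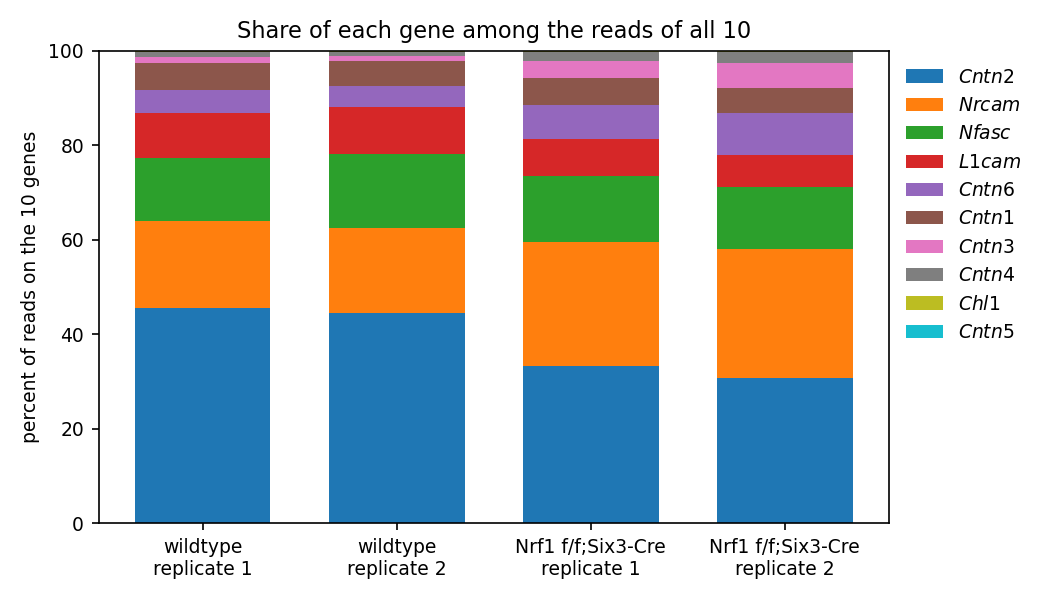
Percent of the reads on all 10 genes that each gene supplied, as stacked bars for each of the 4 libraries. The Cntn2 segment is smaller in both mutant libraries (33.3% and 30.7%) than in both wildtype libraries (45.6% and 44.6%), and the Nrcam segment is larger.

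The levels can also be set against those of ganglion cell markers in the same library. Per 1000 CPM summed over the 12 markers, *L1cam* had 29.4 and 29.7 CPM in wildtype and 28.9 and 25.5 CPM in mutant libraries, and *Cntn2* had 144 and 136 against 124 and 116 CPM. These ratios differ far less between genotypes than the levels themselves. *Nrcam* had 57.7 and 54.6 CPM per 1000 marker CPM in wildtype and 97.1 and 103 in mutant libraries, *Cntn6* 15.6 and 13.6 against 27.1 and 33.1, and *Cntn3* 4.05 and 3.13 against 14.0 and 20.5. The sum of the markers was 3061 and 3499 CPM in wildtype and 1325 and 1073 CPM in mutant libraries, so these ratios depend on how far the chosen markers fell, and they were not tested. *Tubb3*, the neuronal beta-tubulin gene, alone had a mean of 1431 CPM in wildtype and 597 CPM in mutant retinas (log2 fold change -1.26), the largest part of the sum in every library. *Sncg*, which encodes gamma-synuclein, had the most negative log2 fold change of the markers at -2.44, with *Slc17a6*, a vesicular glutamate transporter gene, at -2.22 (-1.52 on the authors' log2 values) and *Nefl*, the light neurofilament gene, at -1.95. *Pou4f2*, a transcription factor gene of ganglion cells, was at -0.97, and *Rbpms*, the only marker not called, at -0.45 (called without wildtype replicate 1).

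Several markers of tissues around the retina were higher in the mutant libraries, and their values are given here beside the rise of *Cntn3*. All 8 lens markers were called higher, with a summed level of 138 to 376 CPM in wildtype and 3203 to 7825 CPM in mutant libraries. Of 7 macrophage and microglia markers 6 were called higher (65.0 to 71.1 against 201 to 243 CPM), and of 8 periocular mesenchyme markers 6 (173 to 238 against 329 to 383 CPM). The 5 pigment epithelium markers tested of 6 were all called higher (161 to 223 against 409 to 434 CPM), and *Rpe65* was too low to test. Endothelial markers were divided, with 4 of 6 called higher and 1 lower (255 to 259 against 247 to 258 CPM), and 2 of 6 Schwann and glial cell markers were called higher (17.7 to 21.6 against 19.4 to 20.2 CPM). No marker of these lists was at 0 in all 4 libraries. The part of these tissues in the rise of *Cntn3* was not tested. Of the other neurons, 3 of 6 amacrine and horizontal cell markers were called lower and 2 higher, and 2 of 6 photoreceptor precursor markers were called lower.

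The partners of the contactins were examined next. Contactin-associated proteins (Caspr) are transmembrane proteins that pair with contactins in the same membrane. Of 7 genes, *Cntnap5c* was too low to test, 3 were called lower and none higher, beside 8.04% and 12.8% of all tested genes. The median over the 6 tested was -0.83 on the log2 scale. *Cntnap1*, whose protein pairs with contactin 1, had 237 and 273 reads in wildtype and 123 and 133 in mutant libraries, a log2 fold change of -1.05 (SE 0.28, adjusted p = 0.0271 from edgeR). *Cntnap4* had 198 reads in each wildtype library and 101 and 77 in the mutants (-1.20, adjusted p = 0.0251), and *Cntnap5a* had 95 and 63 against 30 and 32 (-1.37, adjusted p = 0.0716). *Cntnap2*, the best expressed gene of the list and a partner of contactin 2, was not called, with 65.4 ± 2.97 CPM in wildtype and 50.3 ± 2.21 CPM in mutant retinas and a log2 fold change of -0.38 (adjusted p = 0.00905). All 3 calls rest on low counts and were lost on the authors' log2 values, with differences of -0.39, -0.39 and -0.28. The call of *Cntnap5a* was also lost with glmTreat (adjusted p = 0.242), without wildtype replicate 1 (adjusted p = 0.290), without mutant replicate 1 (adjusted p = 0.212) and at an adjusted p of at most 0.05.

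Among 19 genes for extracellular and membrane partners, 4 were called lower, 3 higher and 12 not called. Over all tested genes, 8.04% were called lower and 12.8% higher. The median of the 19 genes on the log2 scale was 0.17. *Ncan* encodes neurocan, a chondroitin sulfate proteoglycan that binds L1 and contactins. It fell from 4137 and 4043 reads in wildtype to 1080 and 583 in mutant libraries (log2 fold change -2.34, SE 0.24, adjusted p = 0.000268 from edgeR). *Scn3b*, a sodium channel beta subunit gene, fell from 1566 and 1617 reads to 446 and 213 (-2.32, adjusted p = 0.000673), and the difference was -1.47 on the authors' log2 values and -2.94 without mutant replicate 1. *Aplp1*, a relative of the amyloid precursor protein gene, and *Nrp1*, the neuropilin that pairs with L1 in the semaphorin 3A receptor, fell by 1.20 and 0.65 on the log2 scale. In the other direction, *Tnc*, encoding the matrix protein tenascin C, rose from 178 and 106 reads to 1124 and 943 (2.84, adjusted p = 9.88e-05, and 1.45 on the authors' log2 values), *Nrp2* rose by 1.12 and the integrin gene *Itgav* by 0.59. The call of *Itgav* was lost with glmTreat (adjusted p = 0.260 from edgeR). The count of higher calls was 5 without wildtype replicate 1 and 5 with edgeR's exact test on all 4 libraries, and 2 with glmTreat. The receptor phosphatase genes were not called. *Ptprz1*, a receptor for contactin 1, had 72.9 ± 0.00791 CPM in wildtype and 66.5 ± 14.4 CPM in mutant retinas, and *Ptprg*, whose protein binds several contactins, had 197 ± 1.04 and 190 ± 9.23 CPM (log2 fold changes -0.13 and -0.05, adjusted p = 0.518 and 0.703).

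Inside the cell, the L1 family binds cytoplasmic linkers. Of 17 such genes, 2 were called lower, 1 higher and 14 not called, beside 8.04% and 12.8% of all tested genes called lower and higher. Their median on the log2 scale was -0.09. *Dcx*, encoding the microtubule protein doublecortin, which binds neurofascin, fell from 162 ± 15.2 to 53.9 ± 22.9 CPM (log2 fold change -1.58, SE 0.23, adjusted p = 0.00158 from edgeR). *Dpysl2*, a gene for a mediator of semaphorin signals, fell by 0.63, and *Ezr*, which encodes ezrin, a linker of membrane proteins to actin, rose by 1.05 on the log2 scale. The ankyrin genes *Ank2* and *Ank3* were not called, with log2 fold changes of -0.46 and -0.21 (adjusted p = 0.0103 and 0.134), although without wildtype replicate 1 or without mutant replicate 1 *Ank2* passed the 1.4-fold limit. None of the 4 genes for proteases that shed or cleave L1 family proteins was called, with log2 fold changes between -0.18 for *Adam10* and 0.20.

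Of 29 other neural immunoglobulin-superfamily adhesion molecules, 10 were called lower, 3 higher and 16 not called, beside 8.04% and 12.8% of all tested genes. Their median log2 fold change was -0.24, compared with -1.42 for the 4 L1 family genes and -0.81 for the 6 contactins, a difference that was not tested. *Robo3*, a receptor gene of axon crossing, had 77 and 174 reads in wildtype and 25 and 27 in mutant libraries (log2 fold change -2.35, adjusted p = 0.0159), but the value was -1.48 without wildtype replicate 2 and -0.51 on the authors' log2 values. *Islr2* (also called Linx), known for axon guidance, fell from 384 ± 58.4 to 105 ± 20.4 CPM (-1.87, adjusted p = 0.000104), and *Dscam*, a gene of cell spacing in the retina, from 42.0 ± 6.94 to 13.2 ± 3.22 CPM (-1.67, adjusted p = 0.000295). *Alcam* and *Cadm2* rose by 0.78 and 0.62 on the log2 scale, but the call of *Cadm2* was lost with glmTreat (adjusted p = 0.252 from edgeR) and on the authors' log2 values (0.49, just inside 1.4-fold). *Thy1* was also called higher, but on 1 and 1 reads in wildtype and 11 and 25 in mutant libraries, a ratio of 17.6 with an exact 95% counting interval from 4.52 to 151. On the authors' log2 values *Thy1* differed by 0.27 and was not called.

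**Figure D4:**
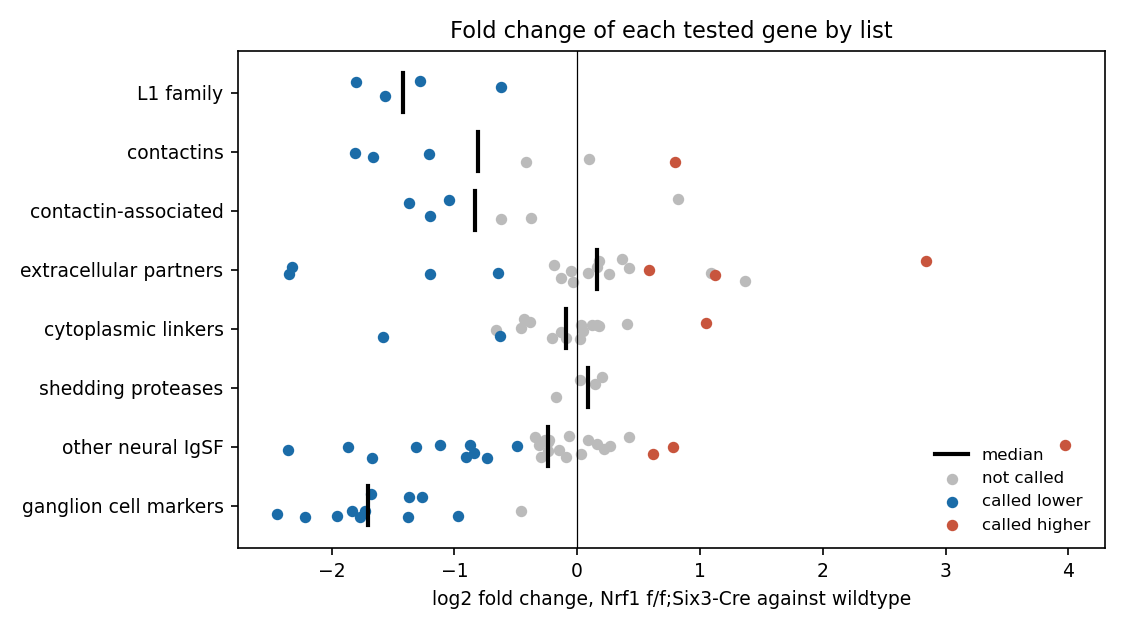
Log2 fold change of each tested gene by list (IgSF, immunoglobulin superfamily), with blue for called lower, red for called higher, grey for not called and a black bar for the median. The medians of the L1 family (-1.42), the contactins (-0.81) and the contactin-associated genes (-0.83) are below 0, those of extracellular partners (0.17), cytoplasmic linkers (-0.09) and shedding proteases (0.08) are near 0, and the point for Thy1 at the far right rests on 1 read in each wildtype library.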

How the data were processed

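RNA-seq libraries of E13.5 retinas, 2 wildtype and 2 *Nrf1* f/f;Six3-Cre, were compared. The authors aligned reads to mm10 with TopHat2 and deposited whole-number counts per gene from HTSeq. They also deposited normalized log2 values, used here only as an alternative. The submitters' processing notes name DESeq and limma and the methods name Cuffdiff, but which of them made these values is not given in the sources used here, nor are the annotation release and strand setting. The 5 summary rows of HTSeq (74.0% to 75.0% of entries) were left out, as were genes failing filterByExpr at a minimum count of 10.

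Counts were scaled with TMM factors and tested with edgeR 4.0.16 in R 4.3.3, with Benjamini-Hochberg adjustment over 15762 genes and the thresholds of the study. Standard errors follow from each gene's F statistic. Scripts were tested on simulated data. The labels do not say which embryos went into which library, so p-values measure the spread between 2 pools a genotype, which may be technical. Intervals of read shares do not cover PCR copies.

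The members and lists were chosen with earlier results of these data known. Named are all 10 members, at most 3 called genes per list and direction with the largest changes, and known partners of called members. *Pou4f2*, *Tubb3*, *Rbpms*, *Adam10*, *Arhgap4*, *Gm32710* and the genes too low to test were named after their values were seen. Positions are from GENCODE vM21 (GRCm38), promoters from RefSeq.

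Alternatives were DESeq2 1.42.0, edgeR's exact test and glmTreat, limma-voom (limma 3.58.1), other scalings, filters and thresholds, limma on the deposited log2 values, a replicate block and each library left out in turn.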

Additional observations from a re-analysis of the deposited data

How the results depend on the processing

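Over 16 alternatives, call and direction of the 10 genes were kept in 158 of 160 comparisons, and those of 31 genes of the other lists in 479 of 494. The members' exceptions were *Nrcam* with glmTreat and *Cntn5* on the deposited log2 values, each of which left 6 genes called lower. The median log2 fold change of the 10 genes was -0.54 on the deposited log2 values, and leaving out each library in turn gave -1.44 to -1.07. *Chl1* and *Cntn5*, the members with the fewest reads, went from -1.80 and -1.81 to -0.49 and -0.41 on the deposited values. *Cntn2*, with the most reads, stayed between -1.68 and -1.62 in all alternatives that kept the 4 libraries. Over all genes, 1268 were called lower and 2024 higher, against 743 and 1188 with glmTreat and 722 and 941 on the deposited log2 values. The log2 fold change of *Ptprz1*, -0.13 and not called, ranged from -0.37 to 0.070 with a library left out, and only without Nrf1-CKO replicate 2 was it positive. The causes were not tested.

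The replicate numbers were shared between the genotypes, but deviations of same-numbered libraries had a correlation of -0.00501 across genes, so the numbers were not taken to pair the samples. With the replicate block, 1256 genes were called lower and 1970 higher, and 7 and 1 of the 10 genes. With 2 libraries a genotype the spread is poorly known, and the low counts of *Chl1* and *Cntn5* leave their intervals wide.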
